A study of Homo sapiens with 15 samples.

Results

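The replication-independent histone variant genes are those for H2A.Z (H2AZ1 and H2AZ2), H3.3 (H3-3A and H3-3B), H2AX (H2AX), the linker histone H1.10 (H1-10), macroH2A (MACROH2A1 and MACROH2A2) and the centromeric H3 variant CENP-A (CENPA). These 9 genes were taken by name from the 19820 protein-coding genes of the annotation, and each was assigned the peaks and regions within 1 kb of any of its protein-coding start sites. They were set against the 63 clustered histone genes, which are those named H1-1 to H1-6, H2AC, H2BC, H3C or H4C on chromosomes 6 and 1.

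DNA G-quadruplexes were mapped by chromatin immunoprecipitation and sequencing with BG4, an antibody fragment made against this 4-stranded structure. The cells were asynchronous, untreated and cross-linked K562, an established line from a chronic myeloid leukaemia, so that all results come from 1 line. There were 5 BG4 libraries, 1a and 1c from biological replicate 1 and 2a, 2b and 2c from biological replicate 2. The 2 input libraries and the 8 bisulfite libraries of HaCaT keratinocytes, with or without the histone deacetylase inhibitor entinostat, were not analysed here.

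Replication-independent histone variants are made outside S phase as well and can enter chromatin without DNA synthesis. The clustered genes supply the bulk histones of S phase, have no introns and make mRNAs that end in a stem-loop instead of a poly(A) tail. Variant genes mostly have introns and polyadenylated mRNAs, and dedicated chaperones place their products.

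The authors' lists held 12495, 10079, 8059, 9026 and 11111 peaks for libraries 1a, 1c, 2a, 2b and 2c. Their deposited set of high-confidence regions held 8940 nuclear regions, the same stretches as those covered by peaks of at least 3 of the 5 libraries. Peak heights are given as the fold enrichment that the authors' caller wrote, and as the percentile of that fold within its own library's list, ties at their middle rank, since folds of separate lists are not on 1 scale. The peak names in the lists of 2a and 2c carry each other's library letter, so that values given for these libraries may be exchanged, which changes no count over libraries. The lists give no read depth, and they hold only peaks above a −log10 p of about 5, so that a gene without a peak had none above that limit and cannot be said to lack the structure. Of 7 markers of K562 and related erythroid cells, 4 had a region (ZFPM1, LYL1, TAL1 and EPOR), and a peak says nothing of expression.

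The sequences under the peaks differed in how they carry guanines. A quadruplex motif was taken as 4 G runs, each 3 or more long, separated by 1 to 7 bases, and was sought on both strands. Only the H2AZ1 region and both H3-3A regions held one, and their motifs are in capitals, read on the strand of the gene, so that a motif on the template strand appears as runs of C. The H2AZ1 stretch is chr4:100871508-100871807 (hg19, minus strand), which is 300 of the 309 bases of its region. The H3-3A stretches are chr1:226249777-226250067, the upstream region, and chr1:226250106-226250405, which is 300 of the 365 bases of the region at the start site (hg19, plus strand). This last stretch ends before the canonical start at 226250417, which the whole region covers.
H2AZ1: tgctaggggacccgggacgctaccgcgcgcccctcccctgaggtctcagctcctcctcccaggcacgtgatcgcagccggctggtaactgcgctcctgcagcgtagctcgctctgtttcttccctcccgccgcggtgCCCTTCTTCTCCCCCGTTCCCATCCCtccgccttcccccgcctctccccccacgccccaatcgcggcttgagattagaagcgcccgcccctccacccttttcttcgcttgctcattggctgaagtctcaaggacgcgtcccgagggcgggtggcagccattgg
H3-3A upstream: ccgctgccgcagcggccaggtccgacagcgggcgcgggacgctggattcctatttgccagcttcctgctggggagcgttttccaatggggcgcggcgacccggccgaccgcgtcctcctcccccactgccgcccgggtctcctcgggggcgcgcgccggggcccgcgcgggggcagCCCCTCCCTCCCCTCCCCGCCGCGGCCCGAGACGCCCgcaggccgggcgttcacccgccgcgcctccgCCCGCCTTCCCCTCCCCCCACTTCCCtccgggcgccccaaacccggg
H3-3A start site: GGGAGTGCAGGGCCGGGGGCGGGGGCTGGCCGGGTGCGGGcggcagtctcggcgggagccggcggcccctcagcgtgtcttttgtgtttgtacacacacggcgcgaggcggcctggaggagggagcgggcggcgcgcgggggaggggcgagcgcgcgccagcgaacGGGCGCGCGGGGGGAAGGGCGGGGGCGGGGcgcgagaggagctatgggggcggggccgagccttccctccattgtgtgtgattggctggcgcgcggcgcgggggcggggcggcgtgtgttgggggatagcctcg
The motif of H2AZ1 and both motifs of the upstream H3-3A region were on the template strand, whereas both motifs of the H3-3A region at the start site were on the sense strand. The H2AZ1 region reached 10 bases into an annotated exon of H2AZ1 and held 177 exon bases of the long noncoding RNA H2AZ1-DT. The H3-3A regions held 19 and 52 bases of annotated UTR.

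The other 5 regions held no motif. They are shown with capitals for CCAAT, the box bound by NF-Y, and GGGCGG, the box bound by SP1 and related factors, on either strand (ATTGG and CCGCCC are their complements). The regions are those of H2AZ2 at chr7:44887675-44887938 (minus strand), H3-3B at chr17:73781099-73781355 (minus strand), H2AX at chr11:118966200-118966356 (minus strand), MACROH2A1 at chr5:134734915-134735041 (minus strand) and CENPA at chr2:27008707-27008908 (plus strand), all in hg19. None of the variant regions overlapped coding sequence. Those of H2AZ2 and MACROH2A1 reached 12 and 14 bases into annotated 5′ UTRs of their genes, that of CENPA 14 bases into an exon of a transcript with no defined coding sequence, that of H2AX lay wholly before the gene, and that of H3-3B lay within an exon of a noncoding H3-3B transcript and an intron of UNK. For H1-10, which had no peak, the 250 bases before its start site are shown for comparison (chr3:129035130-129035379, hg19, minus strand).
H2AZ2: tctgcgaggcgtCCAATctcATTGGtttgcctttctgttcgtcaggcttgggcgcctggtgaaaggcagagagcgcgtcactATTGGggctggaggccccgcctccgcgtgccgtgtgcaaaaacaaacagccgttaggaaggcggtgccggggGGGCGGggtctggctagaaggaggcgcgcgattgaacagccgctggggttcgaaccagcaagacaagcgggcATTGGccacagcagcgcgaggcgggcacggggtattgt
H3-3B: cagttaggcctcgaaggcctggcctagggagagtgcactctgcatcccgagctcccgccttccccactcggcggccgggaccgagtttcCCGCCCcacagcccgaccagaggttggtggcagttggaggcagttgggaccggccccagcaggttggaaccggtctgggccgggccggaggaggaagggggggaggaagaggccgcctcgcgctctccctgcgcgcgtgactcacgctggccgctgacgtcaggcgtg
H2AX: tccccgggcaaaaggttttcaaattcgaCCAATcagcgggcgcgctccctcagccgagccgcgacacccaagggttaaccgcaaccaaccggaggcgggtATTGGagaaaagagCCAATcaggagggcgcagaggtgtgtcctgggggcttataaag
MACROH2A1: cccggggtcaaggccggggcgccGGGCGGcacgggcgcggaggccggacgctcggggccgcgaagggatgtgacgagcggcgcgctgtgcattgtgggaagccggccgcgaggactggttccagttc
CENPA: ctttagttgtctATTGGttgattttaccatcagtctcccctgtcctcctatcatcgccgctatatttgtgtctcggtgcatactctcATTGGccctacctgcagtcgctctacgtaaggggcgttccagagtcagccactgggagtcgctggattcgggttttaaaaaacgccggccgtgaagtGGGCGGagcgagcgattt
H1-10, no peak: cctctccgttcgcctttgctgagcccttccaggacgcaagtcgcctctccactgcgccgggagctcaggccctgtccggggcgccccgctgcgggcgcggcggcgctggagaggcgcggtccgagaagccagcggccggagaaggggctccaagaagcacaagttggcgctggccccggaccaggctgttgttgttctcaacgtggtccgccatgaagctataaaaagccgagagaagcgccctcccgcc
The H2AZ2 region held 4 CCAAT boxes, the H2AX region 3 and the CENPA region 2, and those of H3-3B and MACROH2A1 held none. The 250 bases before the H1-10 start held neither box.

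Most of the variant genes had BG4 peaks, and most clustered histone genes had none. A high-confidence region lay within 1 kb of a start site of 7 of the 9 variant genes (77.8%) and of 2 of the 63 clustered genes (3.17%), and over all protein-coding genes the share was 34.8%. The 95% Wilson intervals of these shares, which cover counting error only, were 45.3% to 93.7% for the variant genes and 0.875% to 10.9% for the clustered genes. They take genes as independent, though some neighbouring clustered genes share peaks. Both lists were chosen with earlier results of these data known, so that the intervals do not test the difference. The variant genes with a region were H2AZ1, H2AZ2, H3-3A, H3-3B, H2AX, MACROH2A1 and CENPA. H1-10 and MACROH2A2 had no peak in any library. When only the canonical start site of each gene was used, that of the transcript so tagged in GENCODE, 6 of the 9 variant genes and 1 of the 63 clustered genes had a region, against 32.7% of all protein-coding genes, and the variant gene lost was H3-3B.

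The clustered genes were chosen for comparison as a set known to mostly lack regions in these same lists, so the direction of the difference was largely set by that choice, and the values by library are a description. In library 1a, 6 of the 9 variant genes and 7 of the 63 clustered genes had a peak, where the share over all protein-coding genes was 38.5%. In library 1c there were 5 variant genes and 6 clustered genes (32.6% over all genes), and in library 2a 7 variant genes and 5 clustered genes (31.9% over all genes). Library 2b had peaks at 6 variant genes and 3 clustered genes (35.5% over all genes), and library 2c at 7 variant genes and 6 clustered genes (39.0% over all genes). The share of variant genes minus that of clustered genes was 55.6, 46.0, 69.8, 61.9 and 68.3 percentage points in 1a, 1c, 2a, 2b and 2c. Averaged within biological replicates it was 50.8 and 66.7 points, with a mean of 58.7 ± 11.2 (SD, n = 2 biological replicates). Libraries of 1 biological replicate are technical repeats, genes are not replicates, and no test of the difference was made over genes.

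A peak in all 5 libraries was found at 4 of the 9 variant genes, H2AZ1, H2AZ2, H3-3A and H3-3B, as at 1 clustered gene and 23.1% of all protein-coding genes. These are both genes of H2A.Z and both genes of H3.3, but the H3-3B region lay 5239 bp from its canonical start and 156 bp from a start of UNK. Within 1 kb of the canonical H3-3B start, 3 libraries had a peak. A peak in at least 1 library was found at 7 of the 9 variant genes and 14 of the 63 clustered genes, against 47.7% of all protein-coding genes. H2AX and CENPA had peaks in 4 libraries and MACROH2A1 in 3.

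**Figure D1:**
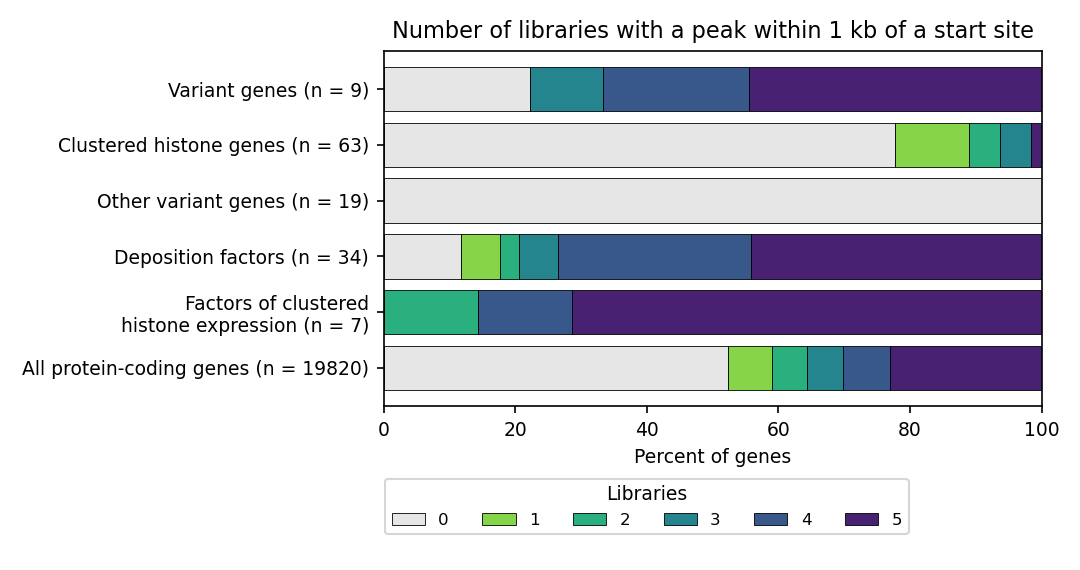
Percent of genes (horizontal axis) with a peak within 1 kb in 0 to 5 BG4 libraries, for each gene list (vertical axis, n in brackets). The variant genes were either without a peak or had peaks in 3 to 5 libraries, while 49 of the 63 clustered genes had none.

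H3-3A and H3-3B code for the same H3.3 protein, which replaces H3 at active genes, enhancers and telomeres. H3-3A had the highest median percentile of the group, 85.9, with folds of 8.59 and 8.14 in libraries 1a and 1c and of 11.5, 8.68 and 10.3 in 2a, 2b and 2c. These were percentiles of 72.3 and 75.6 in the lists of 1a and 1c, and of 95.6, 85.9 and 94.3 in those of 2a, 2b and 2c. The 3 libraries of biological replicate 2 thus all ranked H3-3A higher than did both libraries of replicate 1. Its 2 regions were 291 and 365 bp wide, with their middles at −495 and −133 bp from the canonical start (negative values are upstream), and were 79.4% and 75.6% GC. Libraries 2b and 2c had a single peak of 690 and 663 bp across both, and 1a, 1c and 2a had separate peaks, of which the upstream one was the lower, with folds of 6.35, 5.34 and 6.44. The start-site region held 7 GGGCGG boxes, and the divergent long noncoding RNA H3-3A-DT begins 178 bp from the upstream region.

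The 3 protein-coding genes whose percentiles lay nearest to those of H3-3A over the 5 libraries, among 4568 genes with a peak in all of them, were FAH, KLHL12 and ENSG00000285253. Their Euclidean distances in percentiles were 6.69, 8.36 and 8.50. FAH codes for the last enzyme of tyrosine breakdown, and KLHL12 for an adaptor of a CUL3 ubiquitin ligase.

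H3-3B had peaks with folds of 8.34, 8.52, 8.39, 7.81 and 10.2 in 1a, 1c, 2a, 2b and 2c, at percentiles of 70.1, 78.4, 75.6, 77.9 and 93.8. This region (257 bp, 70.8% GC) lay 212 bp from an alternative H3-3B start site and 5239 bp from the canonical one. It was also 156 bp from a start site of UNK, a gene for an RNA-binding zinc finger protein on the opposite strand, and the region lies inside the annotated bodies of both genes, so that the signal of the H3-3B start and of the UNK start cannot be told apart. Within 1 kb of the canonical H3-3B start, library 1c had 2 peaks with folds of 5.04 and 5.22, 2a had 1 with a fold of 6.42 and 2c had 1 with a fold of 5.14. These lower peaks fell at 2 places, one upstream and one downstream of the start, each covered in only 2 libraries, and neither was a high-confidence region. The canonical start of H3-3B was therefore just outside the limit of 3 libraries, and MACROH2A1, with 3, was just inside it.

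H2A.Z marks the nucleosomes beside start sites and is made by H2AZ1 and H2AZ2, which differ in a few amino acids. H2AZ1 had folds of 8.65 and 4.12 in 1a and 1c, and of 6.42, 8.28 and 6.79 in 2a, 2b and 2c. Its percentiles ran from 5.24 in 1c to 82.4 in 2b, the widest span of the variant genes. The H2AZ1 region was 67.6% GC with its middle at −225 bp from the start, and it overlapped the divergent long noncoding RNA H2AZ1-DT. H2AZ2 had folds of 7.97 and 7.32 in 1a and 1c, and of 4.49, 7.48 and 5.70 in 2a, 2b and 2c, at percentiles from 6.28 in 2a to 73.1 in 2b. Its region covered the start site, was 63.6% GC and lay 77 bp from the start of H2AZ2-DT. The percentiles of H2AZ1 and H2AZ2 overlapped over nearly their whole ranges, so that the 2 paralogues could not be ordered, and each was near the bottom of 1 list, a different one for each gene.

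**Figure D2:**
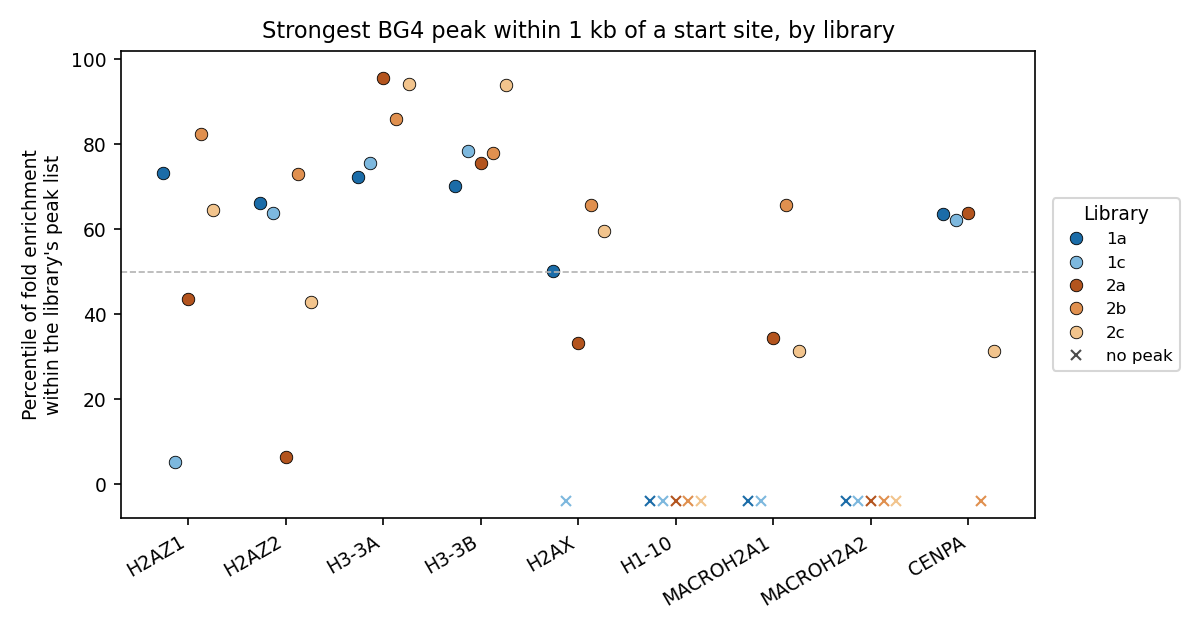
Percentile of the fold enrichment within the library's own peak list (vertical axis) for the highest peak of each variant gene (horizontal axis) in each of the 5 BG4 libraries, with crosses for libraries without a peak and a dashed line at the list's median. All 5 values of H3-3A and of H3-3B lay above 70, H2AZ1 and H2AZ2 each had 1 value under 10, and H1-10 and MACROH2A2 had no peak.

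H2AX, whose tail is phosphorylated beside DNA breaks, is a single-exon gene whose transcripts can be processed either as clustered or as polyadenylated mRNA. It had folds of 6.80 in 1a, no peak in 1c, and 5.92, 7.03 and 6.53 in 2a, 2b and 2c, at percentiles from 33.2 in 2a to 65.7 in 2b. The nearest 1c peak was 7519 bp away. Its region was narrow (157 bp, 59.2% GC) and ended 25 bp before the start. CENPA, which specifies the centromere, had folds of 7.66 and 7.17 in 1a and 1c, 7.45 in 2a and 5.25 in 2c, and no peak in 2b. Its region was 202 bp wide, ended 16 bp before the start and, at 52.5% GC, was the least GC-rich of the variant regions.

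MACROH2A1 codes for a large H2A variant with a macro domain that is common on the inactive X chromosome and in silent chromatin. It had no peak in 1a or 1c and folds of 5.99, 7.03 and 5.25 in 2a, 2b and 2c, so that its region rests on biological replicate 2 alone. The nearest peaks of replicate 1 were 78675 bp from its canonical start in 1a and 57008 bp in 1c. The MACROH2A1 region, 127 bp wide and 76.4% GC, spanned the start and overlapped a divergent noncoding transcript, ENSG00000270021. MACROH2A2, the paralogue on chromosome 10, had its nearest high-confidence region 117618 bp away, and its nearest peak was at a similar distance in all 5 libraries. H1-10, a linker histone that associates with nucleoli and chromosome periphery in dividing cells, had its nearest region 37395 bp away and its nearest peak 10343 bp away, in 1a. No variant gene lay near the 1 kb limit, since the farthest region that counted for its gene was the upstream H3-3A region, 225 bp from a protein-coding start.

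**Figure D3:**
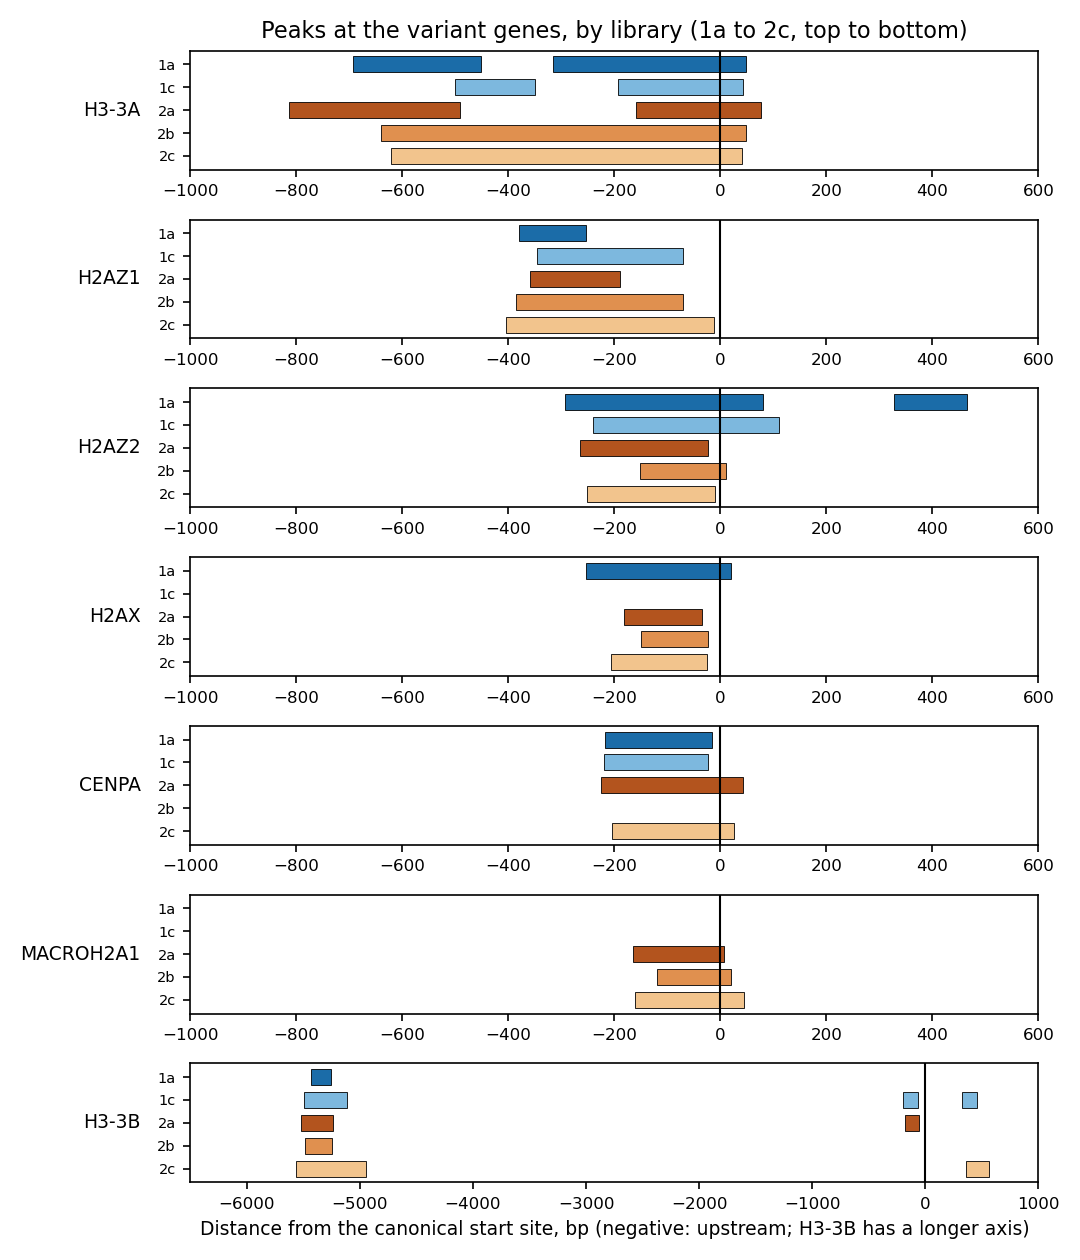
Peaks of each BG4 library (rows 1a to 2c, coloured bars) against the distance in bp from the canonical start site of the gene (vertical line, negative values upstream) for the 7 variant genes with a region. Peaks of the first 6 genes lay upstream of or across the start, apart from 1 downstream peak of H2AZ2 in 1a, and the peaks of H3-3B called in all 5 libraries lay at least 4948 bp upstream of its canonical start.

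Among the clustered genes, H1-4 and H2BC6 had a region. H2BC6 had peaks in all 5 libraries, with folds of 9.04, 7.75, 7.48, 5.98 and 7.46 in 1a, 1c, 2a, 2b and 2c, but its region lay 11658 bp from the canonical start and covered only an alternative one. H1-4, a linker histone gene, had folds of 6.29 in 1a, 7.71 in 2a and 7.82 in 2c, and its region spanned the start and the first coding bases. H2AC11 and H2BC11, a divergent pair that shares its peaks, had peaks in 3 libraries that did not form a region. The divergent pair H2AC12 and H2BC12 and the gene H4C4 had peaks in 2 libraries. H3C1, H4C1, H2AC8, H4C8 and H2AC17 had a peak in 1 library each, as did 2 further genes, and the 12 clustered genes on chromosome 1 had none. Some of these 12, among them H3C14, H3C15, H4C14 and H4C15, lie in sequence that is repeated elsewhere in the genome. The percentiles of the clustered genes other than H1-4 and H2BC6 ran from 2.66 to 45.7.

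Sequence around the start sites differed between the lists. The GC content within 1 kb of the canonical start ran from 52.9% at H3-3B to 68.8% at H1-10, with a median of 60.4%, over the variant genes. It had a median of 48.9% over the clustered genes (40.1% to 63.9%) and of 56.0% over all protein-coding genes. All 9 variant genes and 56 of the 63 clustered genes (88.9%) had a strict CpG island within 1 kb (a 500-base window with GC of at least 0.55 and an observed to expected CpG ratio of at least 0.65), as had 75.4% of all protein-coding genes. Among all genes with such an island 45.4% had a region, and among the clustered genes with one 2 of 56 did. H1-10 had the highest GC content of the variant genes and MACROH2A2, at 60.4%, was the middle one.

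**Figure D4:**
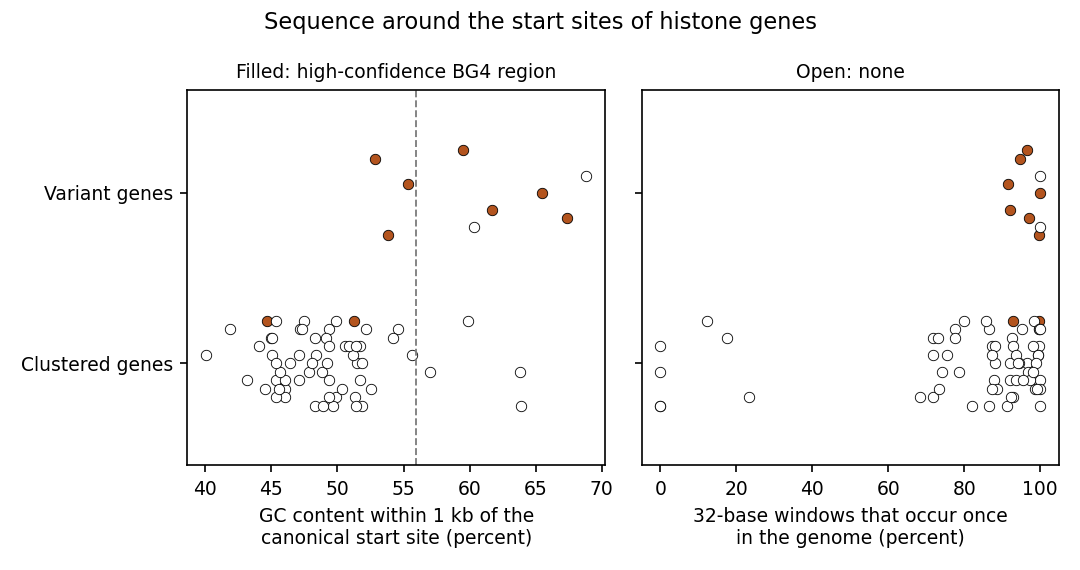
GC content within 1 kb of the canonical start site (left, percent; dashed line, median of all protein-coding genes) and percent of 32-base windows there that occur once in the genome (right), with 1 point for each of the 9 variant genes (top) and the 63 clustered genes (bottom), filled where the gene had a high-confidence region. The open points of the variant genes are H1-10 and MACROH2A2, at 68.8% and 60.4% GC.

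Clustered histone genes resemble each other, and how reads from repeated sequence were placed is not given in the sources used here. Of the 32-base windows within 1 kb of the canonical start, 91.6% to 100% occurred once in the genome at the variant genes (median 97.0%). At the clustered genes 0% to 100% did (median 92.0%), and 4 genes on chromosome 1, H3C14, H3C15, H4C14 and H4C15, had none. All 9 variant genes and 33 of the 63 clustered genes had at least 90% of windows unique. Of those 33 clustered genes 2 had a region, and the difference in share was then 71.7 percentage points, against 74.6 with all clustered genes.

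A quadruplex motif lay within 1 kb of the canonical start of all 9 variant genes and of 15 of the 63 clustered genes (23.8%), and of 68.5% of all protein-coding genes. H1-10 and MACROH2A2 thus had a motif but no peak. Within the regions themselves, 3 of 8 variant regions held a motif, and 34.7% of all 8940 regions did, or 35.6% of those between 127 and 365 bp wide. With loops of up to 12 bases, H3-3B and MACROH2A1 also had one, which made 5 of 8 regions, against 50.4% of all regions. With runs of at least 2 G, 7 of 8 had a motif and 91.8% of all regions did, and CENPA was the region without one. The motif count over the variant regions was close to that over all regions under each definition.

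Promoter boxes were counted from 250 bases before to 50 bases after the canonical start, on both strands except for TATAAA, which was sought on the sense strand in the last 50 bases before the start. CCAAT was found at 6 of the 9 variant genes, namely H2AZ1, H2AZ2, H3-3A, H3-3B, H2AX and CENPA. It was found at 55 of the 63 clustered genes and at 35.9% of all protein-coding genes. GGGCGG was found at 6 variant genes, 15 clustered genes and 61.2% of all genes. TATAAA was found at 4 variant genes (H2AZ1, H3-3B, H2AX and H1-10), 36 clustered genes and 4.18% of all genes. A quadruplex motif in this window was found at 3 variant genes (H2AZ1, H3-3A and MACROH2A1), 5 clustered genes and 33.8% of all genes. Over all 8940 regions, 32.5% held CCAAT and 72.1% GGGCGG, and of the 8 variant regions 6 held CCAAT and 7 GGGCGG.

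Genes for histone chaperones and exchange factors had a region at 27 of 34 (79.4%), against 34.8% of all protein-coding genes and 45.4% of those with a strict CpG island, which all 34 have. For H3.3, 7 of 8 genes had a region. Median percentiles of these genes were taken over the libraries with a peak only, so that a missing peak does not lower them. The highest were UBN1 and HIRA of the HIRA complex, with 95.5 and 93.6. DAXX and ASF1A followed with 79.6 and 50.2, while ATRX, the partner of DAXX, had no peak. For H2A.Z exchange, 8 of 11 genes had a region, led by EP400 (93.1), ACTL6A (90.1), RUVBL2 (80.5) and SRCAP (71.5), which belong to the remodellers that insert H2A.Z, and DMAP1 had no peak. For CENP-A, 5 of 6 genes had a region. RBBP4 and RBBP7, which serve many complexes, had median percentiles of 82.3 and 80.0 over 5 libraries. The dedicated chaperone gene HJURP had 33.4 over 3 libraries and the Mis18 subunit gene MIS18A 25.8 over 4. Of the chaperones of newly replicated or general chromatin, 7 of 9 had a region, led by CHAF1B (86.6), ASF1B (73.4), NAP1L4 (68.8) and NAP1L1 (57.2), and HELLS had no peak. The value of CHAF1B rests on 4 libraries and that of NAP1L1 on 3, while CHAF1A, with peaks in all 5, had 48.4.

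Of the genes for factors of clustered histone expression, all with a strict CpG island, 6 of 7 had a region, beside the same shares of 34.8% of all protein-coding genes and 45.4% of those with an island. They were led by HINFP, a regulator of H4 genes, with a median percentile of 95.4, SLBP, which binds the histone mRNA stem-loop (81.0), LSM11 of the U7 particle (64.5) and NPAT, the cyclin E target that activates the clusters (62.1). In contrast, none of 19 other histone genes, counted here neither as variant nor as clustered genes, had a peak in any library. Many of them are genes of the germ line. They include H3-4 on chromosome 1 and H4C16 on chromosome 12, which is named as an H4 gene, so that not all are variant genes. Of those 19 genes 12 had a strict CpG island.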

How the data were processed

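BG4 chromatin immunoprecipitation libraries of K562 were deposited by the authors as peak lists per library, called with MACS2 on hg19 per the submitters' processing notes. Which aligner, which control and which version of the caller were used is not given in the sources used here. Columns deposited by the authors were positions, a score, a fold enrichment and −log10 p and q values. The high-confidence regions were deposited as positions. Read depth is unknown. A total of 15 mitochondrial regions were left out.

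Start sites came from GENCODE release 44 on GRCh37, and 1 base within 1 kb counted. Sequences came from GRCh37. Intervals, motifs and figures were computed with Python 3.11.15, numpy 2.4.6, pysam 0.24.0 and matplotlib 3.10.9, and the overlap and motif code was tested on simulated data. The members and lists were chosen with earlier results of these data known. All 9 variant genes were named, at most 12 clustered genes with a peak, and from each other list up to 4 genes with a region by median percentile and up to 2 without a peak. Some genes that this rule would name are not reported here. No test across genes was made, so no p-values are given. Alternatives covered the window, start sites, library support, peak threshold, motif and single libraries left out.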

Additional observations from a re-analysis of the deposited data

How the results depend on the processing

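The variant genes with a region numbered 4 of 9 with stretches of all 5 libraries and 6 to 7 with 1 library left out, since MACROH2A1 was lost without 2a, 2b or 2c. MACROH2A1 was also lost with peaks of a −log10 p of at least 10 and with lists cut to equal length. Of the clustered genes, 1 had a region at canonical starts, with all 5 libraries and with a −log10 p of at least 10, 7 with at least 2 libraries, 14 with at least 1, and 1 to 2 with 1 library left out. Of all 19820 protein-coding genes, 6904 had a region at the main settings, 6490 at canonical starts and 4370 with all 5 libraries. The count was 4928 with a −log10 p of at least 10 and 6036 with lists cut to equal length. It was 8020 with at least 2 libraries, 9449 with at least 1, and 5991 to 6459 with 1 library left out. The share of variant genes minus that of clustered genes was 42.9 points with all 5 libraries and 55.6 with at least 1. Its sign is no sign of stability, since the clustered genes were chosen as mostly lacking regions in these lists. Variant regions with a motif numbered 5 with loops up to 12 and 7 with runs of 2 G, and 9 variant genes had a motif within 1 kb of a coding start. Leaving out clustered genes with under 90% unique windows was chosen after seeing the data. No paired analysis was possible because the K562 data hold 1 condition and the bisulfite samples were not analysed here. Unknown depth limits every statement on genes without a peak, and 2 biological replicates limit the spread.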

Other observations

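The histone cluster of chromosome 6, from 25726790 to 27861203 (hg19), held 51 clustered histone genes, 13 high-confidence regions and 21 other protein-coding genes. Of these 21 other genes 3 had a region, where the share over all protein-coding genes was 34.8%. The 3 were ABT1, a regulator of basal transcription, and the zinc finger genes ZNF184 and ZNF322. The chromosome 1 stretch from 149783925 to 149859515 held 10 clustered genes and no region. At H3C14, H3C15, H4C14 and H4C15 in this stretch, none of the 32-base windows occurred once in the genome. The share was 12.2% at H2AC19, 17.5% at H3C13 and 23.4% at H2BC18, and 75.4% to 88.6% at the other genes. How reads from such sequence were placed is not given, so that a lack of regions there cannot be read as a lack of signal. Exons were counted in the canonical transcript of each gene. By this count all 63 clustered genes have 1 exon, as have H2AX and H1-10 among the variant genes. Over all protein-coding genes with a strict CpG island, a region was present at 101 of 487 single-exon genes (20.7%) and at 46.4% of those with more exons. The 487 include the 56 clustered genes with such an island, of which 2 had a region.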
